A study of Arabidopsis with 8 samples.

Results

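The interaction of genotype and drought was examined: for each transcript, how far the drought response of nNOS transgenic plants differed from that of WT plants. The value was the mean log2 signal of nNOS drought minus nNOS control, from which WT drought minus WT control was subtracted, so that a positive value marks a response that was higher, or less negative, in nNOS transgenic plants. It was computed for each of the 22746 *Arabidopsis* probe sets among the 22810 on the Affymetrix ATH1 array, where a probe set is a group of short probes for a transcript. The remaining 64 are manufacturer's controls. Leaf RNA was hybridized to 8 arrays, 2 for each of 4 groups. WT plants were Col-0, and nNOS transgenic plants carried, in the same background, the gene of a mammalian neuronal nitric oxide synthase under the CaMV 35S promoter, which is active in most plant tissues. Plants were 2 weeks old when they were either kept well watered (WT control, nNOS control) or left without water in soil (WT drought, nNOS drought). The sample labels give a harvest at 14 d and only line nNOS-25, whereas the methods of the study give a shorter drought and pooled RNA of lines nNOS-2 and nNOS-25, so the responses apply to these lines and not to single plants. Each sample held leaves of many seedlings, and no source used here says that the 2 samples of a group were grown separately. The p-values therefore measure the spread between these samples, which may be technical.

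Nitric oxide is a small gaseous signal that acts on stomatal closure, redox balance and stress gene expression in leaves, and the introduced synthase is an added source of it. Drought is sensed in leaves through falling water potential and abscisic acid, which together switch on dehydration genes, while growth genes are switched off. A difference between drought responses can arise in more than one way: the genotypes may differ already when well watered and come together under drought, or they may be alike when well watered and part under drought. The group means tell these apart. A group was therefore said to stand apart where the gap between its mean and the nearest other group mean exceeded the range of the other 3 means.

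Array medians were 4.92 to 5.09 (log2). Within groups, the typical (median) SD of a probe set over its 2 arrays ranged from 0.0599 in WT drought to 0.119 in nNOS control. Poly-A controls are foreign polyadenylated RNAs spiked in ahead of the labelling step. Over their 24 probe sets, log2 signals averaged 8.98 and 9.40 in nNOS control, compared with 6.04 to 6.88 elsewhere. By the same calculation as for the leaf transcripts, these controls had an interaction of -1.81, and 24 of 24 passed the thresholds used for transcripts. The hybridization controls, added after labelling, averaged 9.93 and 10.32 in nNOS control, compared with 8.82 to 9.19 elsewhere. RNA quality shows in the 3′ minus 5′ difference of GAPDH, which was 0.37 and 0.68 on the nNOS control arrays, compared with 0.59 and 0.49 for WT control and 0.10 to 0.28 for the drought arrays. For actin it was 2.19 and 2.235 in nNOS control, 2.214 and 2.203 in nNOS drought and 2.27 to 2.56 in the WT groups. The nNOS control arrays enter each interaction, and the part of these differences in the results was not tested. Of the mesophyll markers, LHCB4.1, RCA, PRK and SBPASE were measured, with log2 signals from 9.95 to 13.47. The root hair expansins EXPA7 and EXPA18 lay between 2.99 and 4.197, and the root β-glucosidase gene PYK10 between 7.40 and 7.92.

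A probe set was called where its adjusted p did not exceed 0.05 and its log2 difference reached 1 in size. By this rule the drought response of 170 probe sets differed between the genotypes (limma), which is 0.747% of those tested. In nNOS transgenic plants the response was higher for 71 (0.312%) and lower for 99 (0.435%). After cyclic loess normalization the split was 52 higher and 124 lower. The count depended on single arrays: it was 287 without nNOS control replicate 1, 110 without WT control replicate 1, 99 without WT drought replicate 1 and 88 without WT drought replicate 2. In all, 59 of the 170 were called without each array in turn, and 57 of these also after each other normalization and with the replicate number in the model. Without moderation of the variances, which leaves 4 residual degrees of freedom to each probe set, 10 were called. With the adjusted p alone, 827 probe sets passed (3.64%; 1.89% higher and 1.75% lower). CYP71B23 (-1.001) lay just inside the log2 threshold and the defensin gene PDF1.2 (0.999) just outside it, whereas AT5G57830 (adjusted p = 0.0509) narrowly missed the adjusted p.

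For most of the 170 a well-watered group stood apart, although this rests on the gap required. The nNOS control group stood apart for 111 of them (65.3%), compared with 25.7% of all probe sets, and the WT control group for 20 (11.8%, compared with 7.61%). A drought group stood apart for 7 only, 5 for nNOS drought (2.94%, compared with 6.15%) and 2 for WT drought (1.18%, compared with 13.1%). For 32 no single group did (18.8%, compared with 47.4%). When the gap had to exceed 2 times the range, nNOS control stood apart for 75, WT control for 10 and no single group for 82. The nNOS control count ran from 48 without WT drought replicate 2 to 212 without nNOS control replicate 1. For each of the 138 with a group apart, both arrays of that group lay outside the range of the other 6, as they did for 75.6% of the 11956 probe sets with a group apart among all tested. Sorting and calling rest on the same values, so these counts are a description. The median size of nNOS control versus WT control was 1.201 on the log2 scale over the 170, but that of nNOS drought versus WT drought was 0.24. Over all probe sets the same medians were 0.23 and 0.18.

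**Figure D1:**
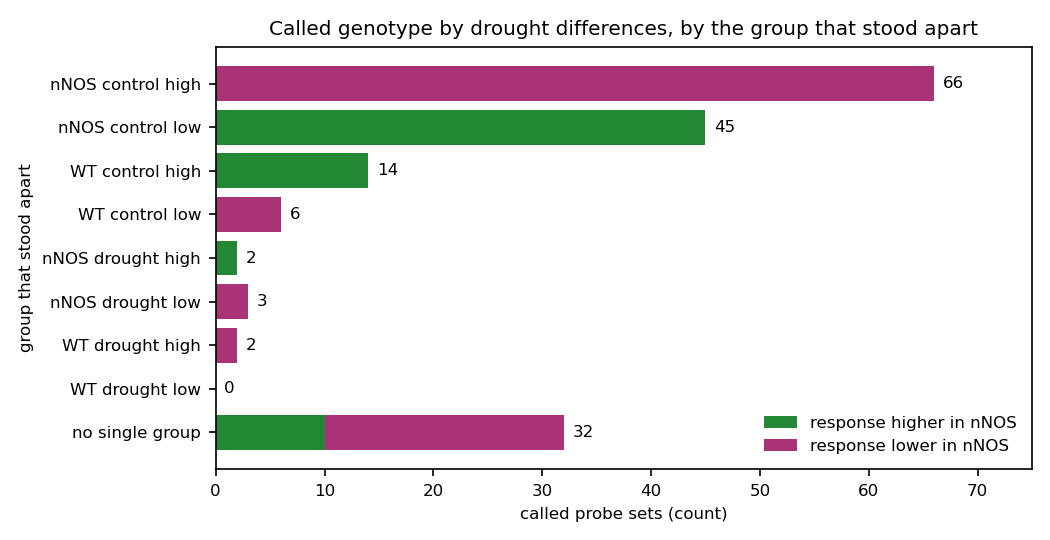
Called probe sets (count, horizontal axis) by the group that stood apart, with green for a response higher and purple for a response lower in nNOS transgenic plants. High nNOS control signals (66) and low nNOS control signals (45) make up most of the 170, and no called probe set had a low WT drought signal as the one apart.

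The drought response was past the same thresholds in nNOS transgenic plants alone for 88 of the 170, in WT plants alone for 23, in both for 7 and in neither for 52. Over all probe sets, 1.97% passed in nNOS transgenic plants and 0.677% in WT plants. In all 7 cases of both, the direction was the same and the size larger in nNOS transgenic plants; these were PDF1.4, AT4G12500, AT1G24575, AT3G28310, SEN1 and IAA29, with lower signals after drought, and AT5G51440, with a higher signal. The interaction call of AT3G28310 was lost without any array but nNOS control replicate 1. For none of the 170 was a response called in opposite directions, although the fitted responses had opposite signs in 82. The median size of the WT response was 0.36 over the 170 and 0.17 over all probe sets. A response near 0 can take either sign, so the 82 are not a count of reversed responses. Of the 170, the genotypes were called different in the well-watered state for 117 (68.8%, compared with 2.15% of all probe sets). Under drought they were called different for 2 (1.18%, compared with 0.0879% of all probe sets). These comparisons share arrays with the interaction and are its parts, not separate support for it.

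**Figure D2:**
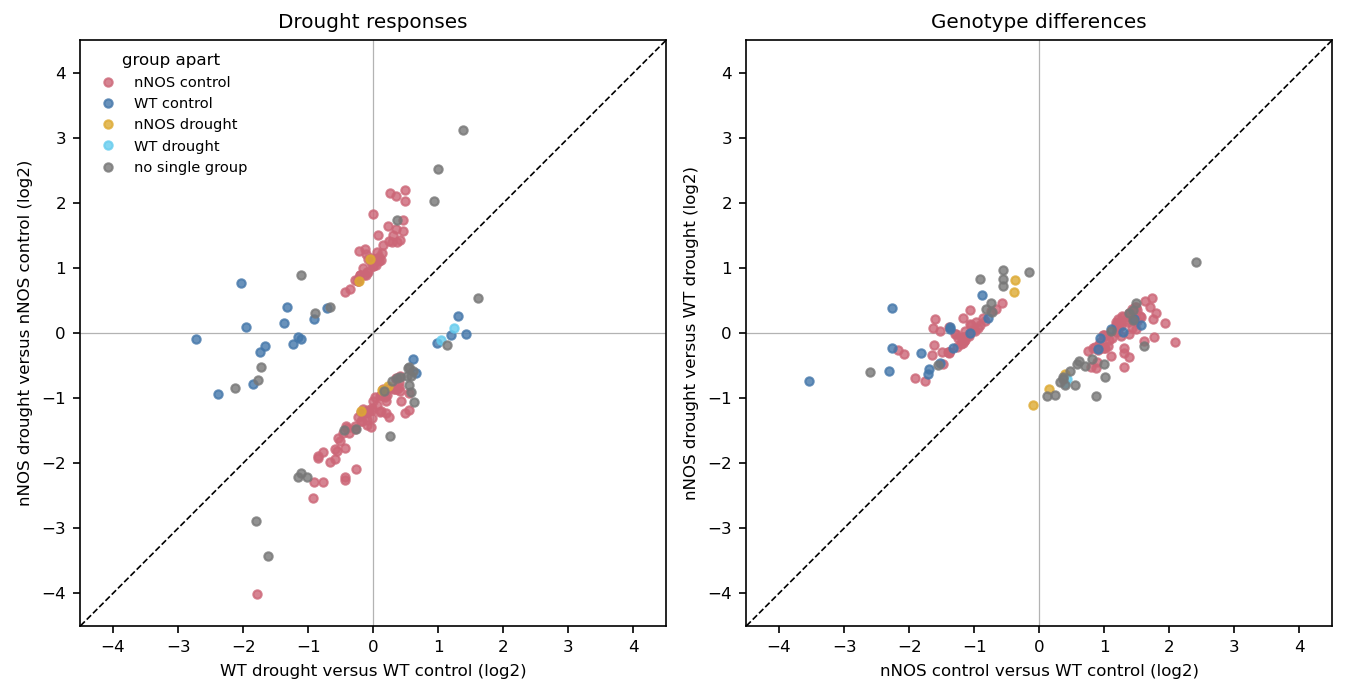
The parts of the 170 differences, as log2 differences of group means, coloured by the group that stood apart; the dashed line marks equal values. On the left, the nNOS response is set against the WT response, and points above the line are the 71 higher ones; on the right, most points spread along the well-watered difference (horizontal) and stay near 0 under drought (vertical).

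Of the 66 probe sets that stood out by a high nNOS control signal, 58 could be named. PDF1.4 (AT1G19610), of the plant defensin family, had log2 signals of 8.60 and 8.74 in nNOS control, 4.78 and 4.53 in nNOS drought, 6.69 and 6.48 in WT control and 4.90 and 4.70 in WT drought. The drought arrays of both genotypes overlapped, and the nNOS control arrays lay far above all others. The drought response was -4.01 in nNOS transgenic plants and -1.78 in WT plants, and the difference of -2.23 (SE 0.18, 2 arrays in each group, adjusted p from limma = 4.65e-04) was the most negative of all probe sets. EARLI1 (AT4G12480) and AT4G12490 belong to a cluster of genes for lipid transfer-like proteins, of which AZI1 serves in systemic immunity. EARLI1 was at 7.04 and 7.09 in nNOS control and between 4.65 and 5.14 on the other 6 arrays, an interaction of -1.77 (SE 0.14, adjusted p = 4.51e-04). Its neighbour AT4G12490 was at 10.02 and 9.97 in nNOS control and between 7.57 and 8.31 elsewhere (-1.83, SE 0.18, adjusted p = 0.00114). A further member, AT4G12500, had -1.81 (adjusted p = 4.65e-04), and the signals of AZI1 gave -0.43 (adjusted p = 0.12). The transcripts of this cluster are alike in sequence, so probes may pick up more than one of them.

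UPB1 (AT2G47270), a transcription factor gene that acts on the balance of reactive oxygen in roots, had signals of 6.25 and 6.62 in nNOS control, 4.38 and 4.32 in nNOS drought, 5.12 and 5.15 in WT control and 4.79 and 4.94 in WT drought. Its interaction was -1.82 (SE 0.18, adjusted p = 0.00128). NIMIN1 (AT1G02450), whose product binds the salicylate co-activator NPR1, was at 7.21 and 7.66 in nNOS control, 6.42 and 6.08 in nNOS drought, 5.99 and 6.13 in WT control and 6.52 and 6.71 in WT drought. The responses thus had opposite signs, -1.19 in nNOS transgenic plants and 0.55 in WT plants (interaction -1.74, SE 0.23, adjusted p = 0.00534). CNI1 (AT5G27420), a ubiquitin ligase gene of the carbon and nitrogen response, was at 9.15 and 9.32 in nNOS control and between 7.74 and 8.03 on the other arrays (-1.43, SE 0.15, adjusted p = 0.00132). PBP1, which encodes a calcium-binding partner of the PINOID kinase, had -1.46 (adjusted p = 0.00251).

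The cold-response transcription factor genes CBF1 and CBF2, which lie close together on chromosome 4 with 1 gene between them, also stood out by their nNOS control signals. CBF2 (AT4G25470) was at 6.36 and 6.82 in nNOS control, 4.62 and 4.68 in nNOS drought, 5.13 and 5.18 in WT control and 4.61 and 4.54 in WT drought. CBF1 (AT4G25490) was at 6.78 and 6.94 in nNOS control, 4.96 and 4.79 in nNOS drought, 5.42 and 5.29 in WT control and 4.73 and 4.67 in WT drought. Drought arrays of the genotypes differed little in both genes. The interaction was -1.35 (SE 0.20, adjusted p = 0.00789) for CBF2 and -1.32 (SE 0.16, adjusted p = 0.00369) for CBF1. RCI2B, which encodes a small membrane protein induced by cold and dehydration, had -1.02 (adjusted p = 0.0184), but its call was lost without any array but nNOS control replicate 1, with values from -1.11 to -0.84 where it was lost. Genes of the small auxin up RNA family in the same group were SAUR63 (-1.26), SAUR68 (-1.17) and SAUR23 (-1.06). The others included AGP4, an arabinogalactan protein gene (-1.30), the peptide transporter gene PTR3 (-1.32), the secreted ribonuclease gene RNS1 (-1.39), the peptide genes CLE27 (-1.08) and RALFL24 (-1.06), and JRG21, a jasmonate-regulated oxygenase gene (-1.12). Of these, SAUR63, SAUR68, AGP4 and PTR3 were called without each array in turn. RNS1 lost its call without any WT array, SAUR23 without nNOS control replicate 2, nNOS drought replicate 1 or WT drought replicate 1, and JRG21 and CLE27 without any drought array or 1 of the WT control arrays. RALFL24 lost it without any array but nNOS control replicate 1. All were taken from the full set after their values were seen, apart from those the naming rule gave.

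**Figure D3:**
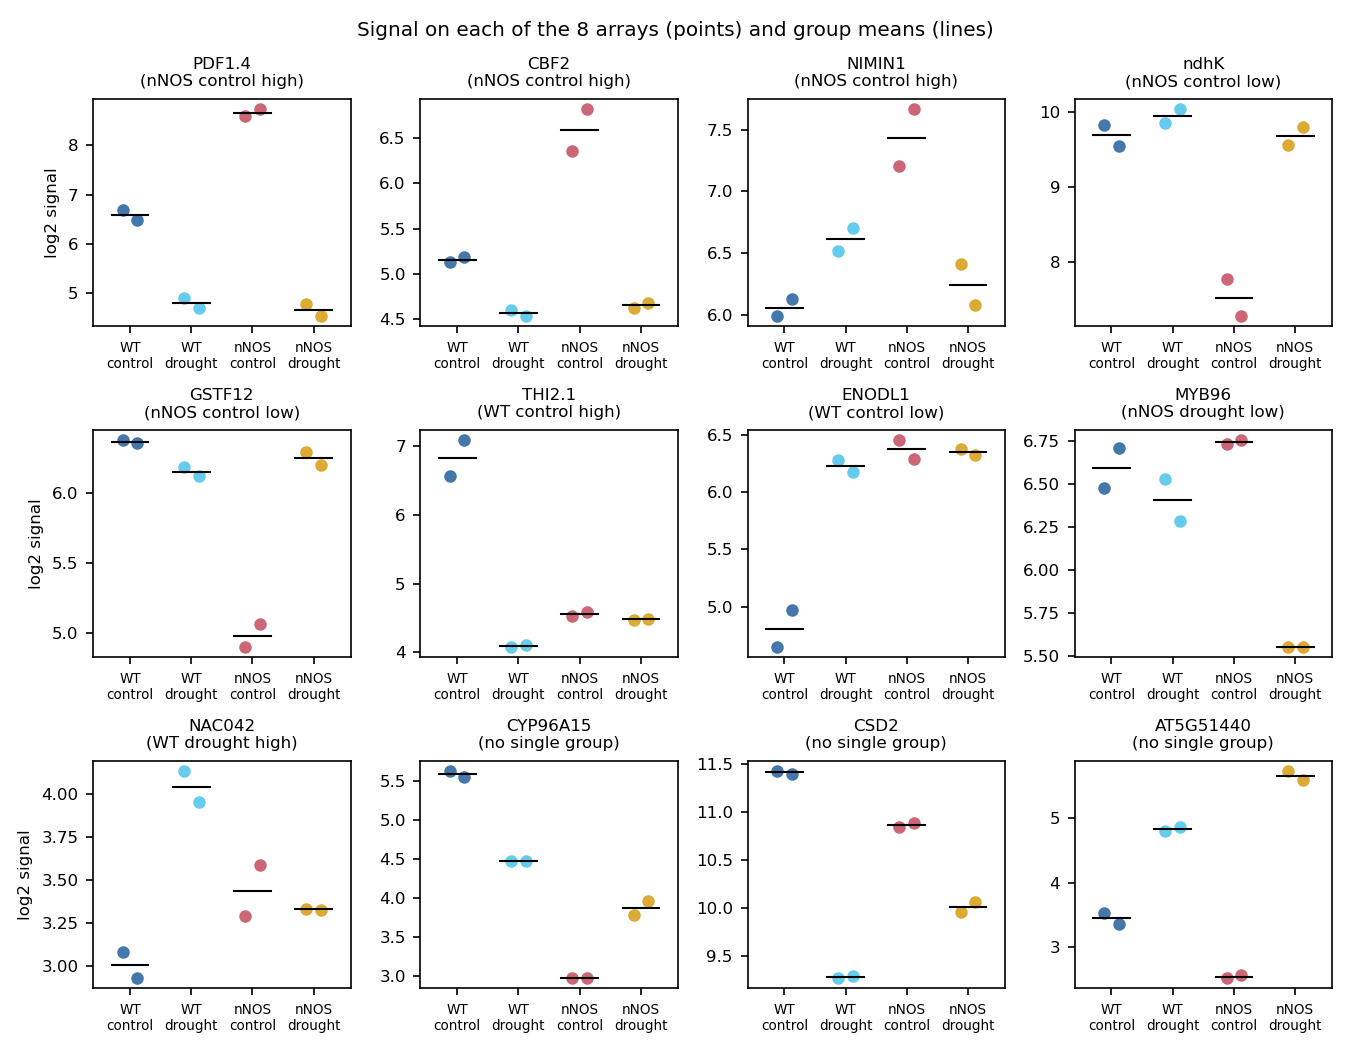
Log2 signal (vertical axis) of 12 genes on each of the 8 arrays (points) with group means (lines), titled by the group that stood apart. PDF1.4, CBF2 and NIMIN1 are highest and ndhK and GSTF12 lowest in nNOS control, THI2.1 is highest and ENODL1 lowest in WT control, and CYP96A15, CSD2 and AT5G51440 have no single group apart.

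The 45 probe sets with a low nNOS control signal included 14 of the 69 plastid-encoded genes. At the same thresholds 0.747% of all probe sets were called. Called or not, nNOS control stood apart by a low signal for 30 of the 69 and by a high signal for 9. Over all probe sets these shares were 12.3% and 13.3%. Plastid genomes encode part of the photosynthetic complexes, of the NDH complex for cyclic electron flow and of the plastid's own transcription and translation. ndhK, of the NDH complex, had signals of 7.77 and 7.28 in nNOS control, 9.56 and 9.80 in nNOS drought, 9.83 and 9.54 in WT control and 9.85 and 10.04 in WT drought. The 6 arrays outside nNOS control thus lay close together and far above it. The drought response was 2.16 in nNOS transgenic plants and 0.26 in WT plants, and the interaction 1.90 (SE 0.24, adjusted p = 0.00416). ycf4, for assembly of photosystem I, was at 6.21 and 5.91 in nNOS control and between 7.56 and 8.05 elsewhere (1.83, SE 0.20, adjusted p = 0.00188). ndhA (1.77), the envelope protein gene cemA (1.71), the ribosomal protein gene rps2 (1.55, adjusted p = 0.00114), the RNA polymerase gene rpoC1 (1.41) and the ATP synthase gene atpH (1.405) likewise had nNOS control as the lowest group, while the order of the other 3 groups differed between genes. The remaining called plastid genes were ndhJ (1.43), psbH (1.28), petB (1.26), clpP (1.195), rpl16 (1.11), rpl14 (1.05) and atpA (1.02). Of these 7, psbH and petB were called without each array in turn. The call of ndhJ was lost without WT control replicate 1 or either WT drought array, and that of clpP without any WT array or nNOS drought replicate 2. The call of rpl16 was lost without any array but nNOS control replicate 1, that of atpA without any but nNOS control replicate 1 and nNOS drought replicate 2, and that of rpl14 without WT control replicate 2, either WT drought array, nNOS control replicate 1 or nNOS drought replicate 2.

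Over the 69 plastid genes, 22 had a higher and 1 a lower response in nNOS transgenic plants at the adjusted p alone (33.3%, compared with 3.64% of all probe sets). The median interaction was 0.46, compared with 0.03 for all probe sets. It was 0.61 for the 10 NDH genes, 0.55 for the 22 genes of gene expression and housekeeping, and 0.37 for the 37 photosynthesis genes. The number that passed ranged from 9 to 28 when an array was left out. The median drought response of these genes was 0.50 in nNOS transgenic plants and 0.04 in WT plants. By array, the mean signal of the 69 genes was 8.21 and 8.38 in nNOS control, 8.73 and 8.91 in nNOS drought, 8.60 and 8.65 in WT control and 8.63 and 8.72 in WT drought. Genes in a row along the plastid genome were called or passed together: atpA, atpF, atpH, atpI and rps2; ndhJ, ndhK and ndhC; ycf4, cemA and petA; psbH and petB; rpl14 and rpl16. Neighbours did not always share a direction. psbT and psbN, which lie between psbB and psbH, had values of -0.62 and -0.61, and rpoB had -0.11 beside rpoC1. The lower one was petL (-0.94, adjusted p = 0.0227), a cytochrome complex gene, with 8.47 and 8.83 in nNOS control and 7.27 to 7.76 elsewhere. The photosystem I gene psaJ had the lowest value (-1.74, adjusted p = 0.0966), with nNOS control arrays at 9.48 and 11.04. In 54 of 69 the value was above 0, as was the median over all probe sets (0.03). The part of the poly-A control difference, which has the same arrays apart, was not tested. Whether these plastid signals follow the amount of transcript or the labelling of the RNA was likewise not tested.

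**Figure D4:**
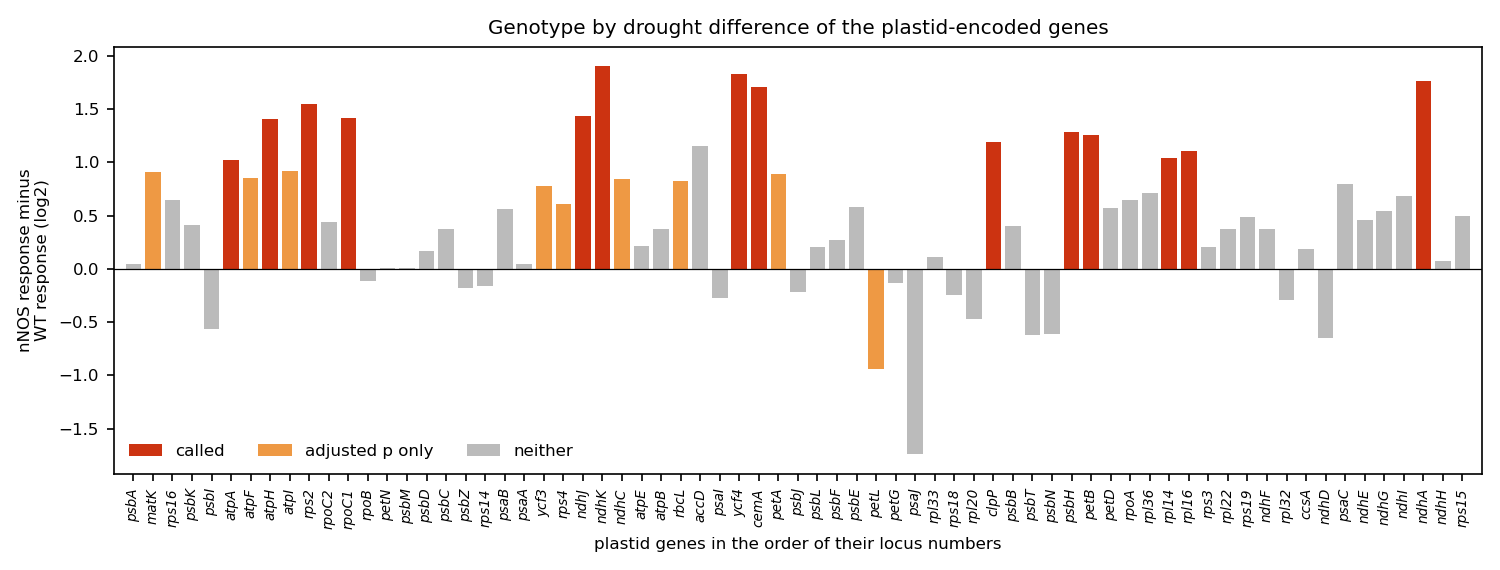
Interaction of 69 plastid-encoded genes (log2, vertical axis) in the order of their locus numbers, with red for called genes, orange for genes that passed the adjusted p only and grey for the rest. Called genes come in runs such as ndhJ and ndhK or ycf4 and cemA, and petL and psaJ point the other way.

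Nuclear genes for photosynthesis gave smaller values. Of 9 nuclear genes measured for light reaction or Calvin cycle, 0 passed the adjusted p, and their values lay between -0.36 and 0.18. At 3.64% over all probe sets, this says little about so short a list. The 95% interval of the difference was -0.46 to 0.24 for PRK and -0.24 to 0.43 for SBPASE. For LHCB4.1, which had the lowest value, it was -0.67 to -0.05 and did not include 0. Among 23 probe sets of mitochondrial genes the median was -0.17, and 1 passed, that of nad6 (-0.88, adjusted p = 0.0406), with 4.16 and 4.35 in nNOS control and 2.96 to 3.41 elsewhere.

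The nuclear genes with a low nNOS control signal were led by GSTF12 (AT5G17220), whose product carries anthocyanin to the vacuole. Its signals were 4.90 and 5.06 in nNOS control, 6.29 and 6.20 in nNOS drought, 6.38 and 6.36 in WT control and 6.19 and 6.12 in WT drought. Only the nNOS control arrays lay outside a narrow range, and the interaction was 1.48 (SE 0.15, adjusted p = 0.00128). Others were HCHIB, a basic chitinase gene (1.09), PBCP, a phosphatase gene of photosystem II (1.07), the trithorax-type regulator gene ULT1 (1.04), the histone deacetylase gene HDT4 (1.01) and the cytokinin response factor gene CRF11 (1.01). ULT1 was at 6.09 and 5.86 in nNOS control and between 6.38 and 6.93 on the other arrays. PBCP was called without each array in turn. The other calls were lost without nNOS control replicate 2, and those of ULT1, HDT4 and CRF11 also without 3 to 5 further arrays, among them WT control replicate 1 and WT drought replicate 2.

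WT control stood apart by a high signal for 14 probe sets and by a low signal for 6. AT1G66850, on the list of anther tapetum genes used here, had the highest interaction of all probe sets, 2.80 (SE 0.16, adjusted p = 9.04e-05). Its signals were 3.62 and 3.69 in nNOS control, 4.39 and 4.47 in nNOS drought, 7.06 and 7.32 in WT control and 5.11 and 5.21 in WT drought. THI2.1 (AT1G72260), a thionin gene induced by jasmonate, was at 6.56 and 7.09 in WT control and between 4.08 and 4.59 on the other arrays. The response of THI2.1 to drought was -2.73 in WT plants and -0.08 in nNOS transgenic plants (interaction 2.65, SE 0.21, adjusted p = 4.51e-04). AT1G54020 was at 6.31 and 6.43 in WT control and between 3.84 and 4.47 elsewhere (2.04, SE 0.22, adjusted p = 0.0018). GRP19, an oleosin gene of the pollen coat, had 4.64 and 4.45 in WT control and 2.14 to 3.29 elsewhere (1.73, SE 0.17, adjusted p = 0.00114), and both nNOS means lay below 3.1, the 25th percentile of all signals, where the arrays measure less precisely. Of 5 tapetum genes counted, 1 passed the adjusted p, which at 3.64% over all probe sets says little about so short a list. GRP19 is an uncounted member of that list. ATA27 was at 3.56 and 3.22 in WT control and between 1.72 and 2.43 elsewhere (1.06, adjusted p = 0.0626), and the tapetum regulator gene AMS stayed between 2.14 and 2.50 on all arrays. Anthers are not leaf tissue, and the part of such material in these signals was not tested.

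Further genes with a high WT control signal were the jacalin lectin gene JAL23 (1.52, not called without any WT array or nNOS drought replicate 1), CYP81F4 of indole glucosinolate metabolism (1.46), DFR of anthocyanin synthesis (1.103, SE 0.15, adjusted p = 0.00594), the dark-inducible gene DIN11 (1.09) and PMEPCRA, a pectin methylesterase gene (1.07). PS2, a pyrophosphatase gene induced by phosphate starvation, was at 4.54 and 4.68 in WT control and between 2.26 and 3.14 elsewhere (1.07, adjusted p = 0.0114), with 3 of its group means below 3.1. A phosphatase gene of the same response, named PEPC1 in the annotation (AT1G17710), had 1.45, with the same 3 group means below 3.1, and SPX3 had 0.97 (adjusted p = 0.0142). Calls were lost without nNOS drought replicate 1 for PEPC1, and without that array or others for DIN11 (each WT array), PMEPCRA (nNOS control replicate 1, WT control replicate 1, WT drought replicate 2) and PS2 (replicate 2 of either WT group). RNS1, on the same list, had the opposite sign. These list members were named through the study's own selection and are examples, not a count.

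Among the 6 with a low WT control signal, ENODL1 (AT5G53870), which encodes an early nodulin-like protein, was at 4.65 and 4.97 in WT control and between 6.18 and 6.45 on the other arrays. Its response was 1.42 in WT plants and -0.02 in nNOS transgenic plants (interaction -1.45, SE 0.18, adjusted p = 0.00416). The arabinogalactan protein gene AGP5 had -1.27 (adjusted p = 0.00281) and AT1G24140 -1.23 (adjusted p = 0.00583). YLS9, a gene of leaf senescence and pathogen response, had -1.04, and its call was lost without WT control replicate 1, WT drought replicate 2 or nNOS drought replicate 1. AT5G15780 (-1.01) was not called without any array but nNOS control replicate 1.

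A drought group stood apart for 7 probe sets, of which 6 could be named. MLP34, of the major latex protein family, was at 4.29 and 4.24 in nNOS drought and between 3.08 and 3.53 on the other arrays (1.18, SE 0.15, adjusted p = 0.00416). It was called without each array in turn. MYB96 (AT5G62470), an abscisic acid-induced activator of wax synthesis, was at 5.55 and 5.55 in nNOS drought and between 6.28 and 6.76 elsewhere. Its response was -1.19 in nNOS transgenic plants and -0.19 in WT plants (interaction -1.01, SE 0.17, adjusted p = 0.0135). AT4G23880 had -1.04 and the cytochrome P450 gene CYP71B23 -1.001, both with nNOS drought lowest. NAC042 (AT2G43000), a regulator of longevity, was highest in WT drought, at 4.13 and 3.95 compared with 2.93 to 3.59, low signals for the array (-1.14, SE 0.18, adjusted p = 0.01), as was AT3G48080 (-1.17, adjusted p = 0.0226). These 5 calls did not hold when arrays were left out: the call of AT3G48080 and of AT4G23880 was lost without any array but nNOS control replicate 2. A lost call did not always mean a smaller value, as AT3G48080 had -1.29 without WT control replicate 2. MYB96 lost its call without either nNOS drought array, nNOS control replicate 2 or replicate 1 of either WT group, and CYP71B23 without either WT drought array or replicate 1 of any other group. For NAC042 the arrays were nNOS control replicate 2, WT control replicate 2 and replicate 1 of both drought groups. Over all left-out arrays the weakest values were -0.93 for AT3G48080, -0.87 for AT4G23880, -0.88 for MYB96, -0.90 for CYP71B23 and -0.99 for NAC042.

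In 32 probe sets the differences were spread over the groups. CYP96A15 (AT1G57750), an alkane hydroxylase gene of wax synthesis, was at 2.98 and 2.97 in nNOS control, 3.78 and 3.96 in nNOS drought, 5.62 and 5.55 in WT control and 4.47 and 4.47 in WT drought. The nNOS control mean lay below 3.1. The fitted responses had opposite signs, with 0.90 in nNOS transgenic plants and -1.11 in WT plants (interaction 2.01, SE 0.15, adjusted p = 3.5e-04). AT5G51440 was at 2.53 and 2.57 in nNOS control, 5.73 and 5.60 in nNOS drought, 3.54 and 3.37 in WT control and 4.80 and 4.87 in WT drought. The fitted response was 3.12 in nNOS transgenic plants, from a control mean below 3.1, and 1.38 in WT plants (interaction 1.73, SE 0.15, adjusted p = 6.96e-04). AT2G21640, with signals from 5.96 to 8.55, had responses of 2.51 and 0.99 (1.52, adjusted p = 0.003). AT5G64190 (-1.84, adjusted p = 0.00136) and AT5G52760 (-1.69, adjusted p = 6.96e-04) had their highest group mean in nNOS control and their lowest in nNOS drought. SEN1, a marker of dark-induced senescence, was at 10.70 and 10.76 in nNOS control and 10.59 and 10.63 in WT control, but at 7.94 and 7.74 in nNOS drought and 8.89 and 8.72 in WT drought (-1.08, SE 0.16, adjusted p = 0.00789). Its call was lost without nNOS drought replicate 2 or WT drought replicate 1. HSP90.1 was at 5.29 and 5.50 in WT drought, 4.76 and 4.62 in nNOS drought and between 3.68 and 4.47 in the controls (-1.07, adjusted p = 0.0485), and its call was lost without any array but nNOS control replicate 1.

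Copper and superoxide dismutase genes were a further set with no single group apart. CSD2 (AT2G28190), the copper/zinc enzyme of the chloroplast, was at 10.84 and 10.88 in nNOS control, 9.96 and 10.06 in nNOS drought, 11.42 and 11.40 in WT control and 9.27 and 9.29 in WT drought. The response was -0.85 in nNOS transgenic plants and -2.13 in WT plants, so the nNOS arrays lay between those of the WT (interaction 1.28, SE 0.14, adjusted p = 0.00188). CSD1, the cytosolic enzyme, had 0.94 (adjusted p = 0.0143) and CCS, the copper chaperone of both, 0.997 (adjusted p = 0.0145). FSD1, the iron enzyme of the chloroplast, had -0.90 (adjusted p = 0.015), with 9.25 and 9.13 in WT control, 10.29 and 10.32 in nNOS control and 11.30 to 11.65 in the drought groups. CSD1, CSD2 and FSD1 are named from genes the study selected for a change on these arrays.

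In the list of dehydration, cold and abscisic acid genes, 0 of 5 counted members passed the adjusted p, with a median of -0.32, which at 3.64% over all probe sets says little about so short a list. CBF1, CBF2 and RCI2B, described above, are members named through the study's own selection and were not counted. The dehydrin genes LTI30 (-0.35) and COR47 (-0.32) and the LEA gene LEA4-5 (-0.41) were below 0, and COR15A (0.13) and COR15B (0.27) above it. DREB2A, named from the study's selection, had a response of 0.61 in nNOS transgenic plants and 1.36 in WT plants (interaction -0.75, adjusted p = 0.0265). The abscisic acid receptor gene PYL5 was at 10.26 and 10.51 in nNOS control, 7.96 and 8.01 in nNOS drought, 9.17 and 9.19 in WT control and 7.44 and 7.42 in WT drought. Its interaction was -0.65 (SE 0.16, adjusted p = 0.0492), under the log2 threshold. ZAT10, listed as STZ, a zinc finger repressor gene of abiotic stress, was lowest in WT control at 7.57 and 7.43, with 8.43 to 8.82 elsewhere (-0.84, adjusted p = 0.0147). It was the 1 of 5 counted rapid stress regulators that passed, and CNI1, described above, is an uncounted member.

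Of 8 counted auxin response genes (AUX/IAA and GH3), 2 passed, both lower in nNOS transgenic plants. IAA29 had responses of -2.15 and -1.11 (interaction -1.04, SE 0.14, adjusted p = 0.00594), which fell short of the log2 threshold without nNOS drought replicate 1 (-0.98), and WES1, for an enzyme that conjugates auxin, had -0.93 (adjusted p = 0.0146). In the jasmonate list 2 of 3 passed, THI2.1 and PDF1.2, whereas JMT was near 0 (0.08). The examples JAZ6 (0.91, adjusted p = 0.014), JAZ7 (0.79, adjusted p = 0.0173) and JAZ10 (0.56) were above 0 too. The jasmonate-regulated gene JRG21, described above and outside this list, had the opposite sign (-1.12). PDF1.2 was lowest in nNOS control, at 7.92 and 8.25, with 9.41 to 10.01 on the other arrays. AT1G47400 passed among 3 iron deficiency genes (-0.99, adjusted p = 0.0201), with responses of -4.01 and -3.01, and DFR among 4 genes of phenylpropanoid and anthocyanin synthesis. Of the counted antioxidant enzyme genes (SAPX, GR, GR1 and TAPX), 0 of 4 passed, and that list leaves out the superoxide dismutase genes described above. None of the counted expansin and XTH genes of the cell wall (0 of 5) or starch and sucrose genes (0 of 4) passed. At an adjusted p alone, 3.64% of all probe sets did.

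Some genes with a large drought response had a small difference between the genotypes. The zinc transporter gene ZIP9 had responses of 3.26 in nNOS transgenic plants and 3.09 in WT plants, and the 95% interval of the difference was -0.22 to 0.56. For the nicotianamine synthase gene NAS2 the interval was -0.66 to 0.14, for IRT3, of the same transporter family, -0.13 to 0.53 and for the heat stress factor gene HSFA2 -0.42 to 0.27. These intervals do not show equal responses, but each bound lies below 1 in size.

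**Figure D5:**
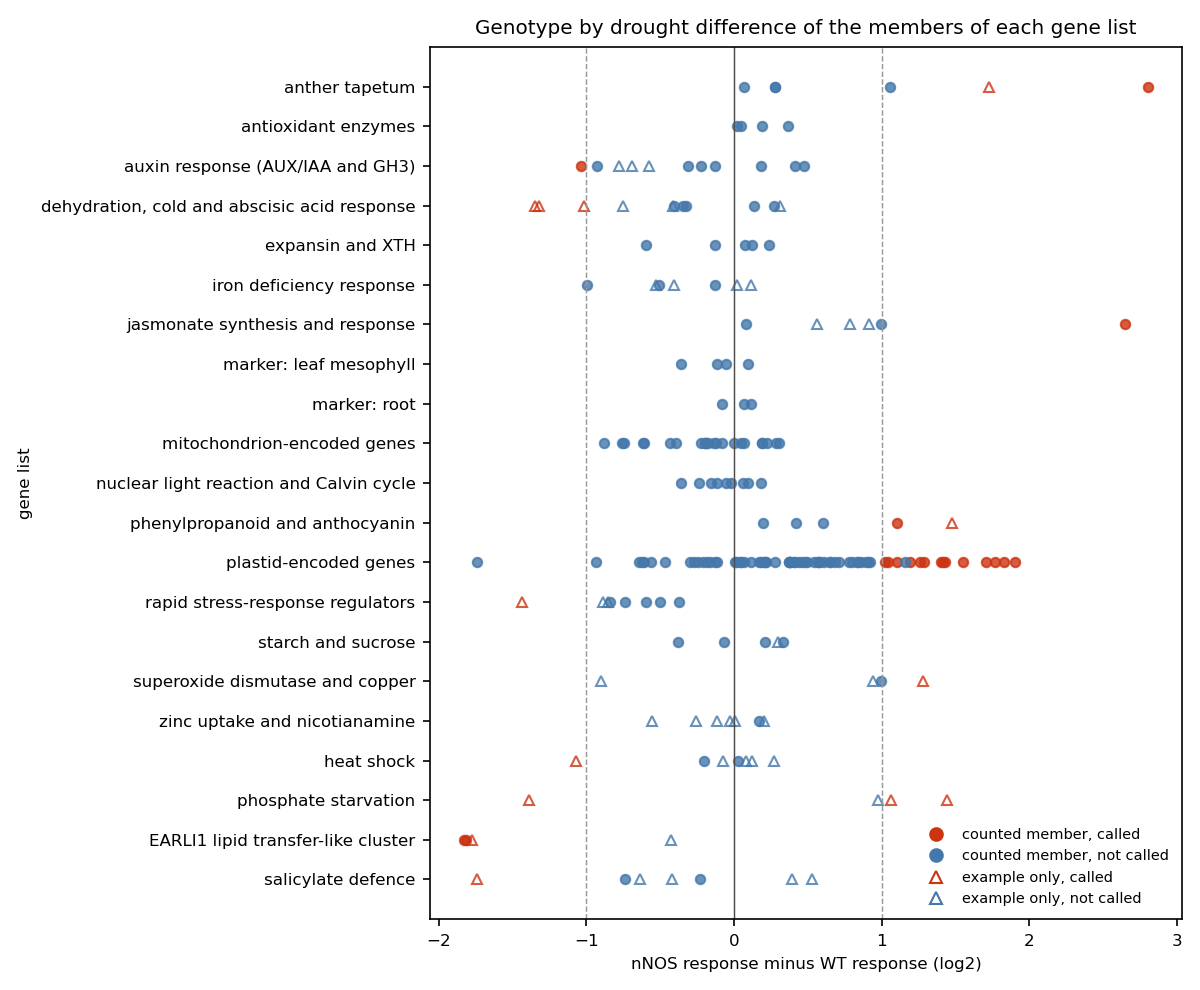
Interaction (log2, horizontal axis) of the members of each gene list, with filled circles for counted members, open triangles for members named through the study's own selection, red for called genes and dashed lines at -1 and 1. Plastid-encoded genes run from -1.74 to 1.90, and AT1G66850 of the tapetum list lies furthest right at 2.80. The members of the zinc and heat shock lists, which do not hold all such genes, lie between -0.55 (ZIP5) and 0.27 (HSP101), apart from HSP90.1 at -1.07.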

How the data were processed

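The authors read the arrays out in Affymetrix Command Console and analysed them with affylmGUI. They deposited normalized log2 signals of 22810 probe sets on 8 arrays; normalization, probe summarization and genome build are not given in the sources used here. From these values, limma 3.58.1 in R 4.3.3 fitted 4 group means to all 8 arrays, with eBayes moderation and Benjamini-Hochberg adjustment over all probe sets, and the 64 controls were left out afterwards. The arrays per group (2) limit the precision. The platform annotation names 13513 probe sets by 1 gene, 503 by several, and the study's gene table a further 245, used as examples only because that table holds genes selected on these arrays. In each gene list a gene was represented by its brightest probe set. Named genes are, for each group apart and direction, up to 5 called probe sets with the largest interaction, up to 4 members of each list, and PYL5, ZAT10, CBF1, CBF2 and RCI2B from the study's text (PYL4 was not analysed here). Members and lists were chosen with earlier results of these data known. The procedure was tested on simulated data. Alternatives were the thresholds, 3 normalizations, a filter on signal, moderation, array weights, the replicate number as a block, several-gene probe sets left out, a wider gap for the group apart and each array left out in turn. Fold changes and p-values of the study's tables were not used. A planned search for promoter motifs was not run.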

Additional observations from a re-analysis of the deposited data

Results flagged for a closer look

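The 170 probe sets with a called interaction are by definition differences between 2 genotypes under the same contrast, and the test of each is that of the difference itself. Among the named genes, the most negative values with nNOS control high were those of PDF1.4 (-2.23), AT4G12490 (-1.83), UPB1 (-1.82), EARLI1 (-1.77) and NIMIN1 (-1.74), followed by CNI1 (-1.43), CBF2 (-1.35), CBF1 (-1.32) and RCI2B (-1.02). With nNOS control low they were ndhK (1.90), ycf4 (1.83), ndhA (1.77), cemA (1.71), rps2 (1.55), GSTF12 (1.48), ndhJ (1.43), rpoC1 (1.41), atpH (1.405) and clpP (1.195). WT control stood apart for AT1G66850 (2.80), THI2.1 (2.65), AT1G54020 (2.04), GRP19 (1.73), JAL23 (1.52) and DFR (1.103) by a high signal, and for ENODL1 (-1.45), AGP5 (-1.27), AT1G24140 (-1.23), YLS9 (-1.04) and AT5G15780 (-1.01) by a low one. A drought group stood apart for MLP34 (1.18), AT4G23880 (-1.04), MYB96 (-1.01), CYP71B23 (-1.001), AT3G48080 (-1.17) and NAC042 (-1.14). With no single group apart there were CYP96A15 (2.01), AT5G51440 (1.73), AT2G21640 (1.52), AT1G24095 (1.38), CSD2 (1.28), AT5G64190 (-1.84), AT4G12500 (-1.81), AT5G52760 (-1.69), AT3G01830 (-1.48), AT3G48650 (-1.35) and IAA29 (-1.04).

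The poly-A controls, which are no leaf transcripts, also had an interaction, of -1.81 over 24 probe sets. The nNOS control arrays were the ones apart for these controls and for 111 of the 170 called probe sets. These arrays also differed from each other. The median of replicate 1 minus replicate 2 was -0.21 over called probe sets with nNOS control high. It was 0.11 over those with nNOS control low and 0.01 over all probe sets. The part of this difference in the calls was not tested.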

How the results depend on the processing

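Of the 47 called named genes, 33 were called without each array in turn; without moderation of the variances 40 lost their call, and only 10 probe sets were called in all (4 higher, 6 lower). With no log2 threshold the count was 827 (429 higher, 398 lower), and with an adjusted p of at most 0.01 it was 93 (45 and 48). The other settings gave 133 to 185 calls, and cyclic loess normalization 52 higher and 124 lower. Leaving out an array gave 88 to 287 calls (40 to 131 higher, 48 to 156 lower), of which nNOS control stood apart for 48 to 212, WT control for 12 to 26, a drought group for 1 to 10 and no single group for 20 to 46. With a gap above 2 times the range, these groups held 75, 10, 3 and 82. List members that passed ranged, with an array left out, from 9 to 28 for plastid genes (2 to 8 for gene expression, 2 to 5 for NDH, 5 to 16 for photosynthesis), 0 to 4 for mitochondrial genes, 1 to 3 for auxin, 1 to 2 for tapetum and for jasmonate, and 0 to 1 for iron, for rapid regulators and for starch. Quantile normalization gave 2 for iron, and cyclic loess 1 for expansin and XTH and 2 for rapid regulators; the cause was not tested. Quantile normalization also ended the calls of IAA29 and AT3G48080. The interactions of RCA (0.0805) and EXPA18 (-0.0073) after quantile normalization and of GR1 (-0.0311) and TAPX (-0.0445) after cyclic loess normalization changed sign, and none was called. With an array left out they ranged from -0.17 to 0.0553 for RCA, -0.17 to 0.31 for EXPA18, -0.0403 to 0.13 for GR1, -0.0861 to 0.12 for TAPX, -0.34 to 0.18 for EXPA7, -0.31 to 0.055 for XTH33 and -0.0062 to 0.24 for PYK10.

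With the replicate number as a block, 172 probe sets were called (74 higher, 98 lower), and no called named gene lost its call. Deviations of equally numbered arrays correlated between -0.12 and 0.12 across group pairs. These correlations rest on 2 arrays per group, so they cannot show whether the numbers pair the samples. In 12 of the 170 a group mean lay below 3.1, the 25th percentile of all signals, where array signal limits the precision.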
